A study of Mus musculus with 6 samples.

Results

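Kinesins, the motor proteins that move along microtubules, were followed in mouse neural stem cells on their way to pluripotency. They were taken as every row of the deposited gene tables whose name is Kif followed by a digit, together with Kifc1, Kifc2 and Kifc3, which gave 40 of 20325 genes. By their known roles 13 were set down as mitotic motors, 12 as motors of axonal and dendritic transport, and 15 as other kinesins. RNA was sequenced from Nanog+E-cadherin+ cells (n = 3) and from Nanog+E-cadherin- cells (n = 3). Both populations were derived from neural stem cells of mice at postnatal day 4, of mixed 129/Black 6 strain, which carried on both alleles of ColA1 a doxycycline-inducible cassette of Oct4, Sox2, c-Myc and Klf4 (Stemcca), and on 1 allele of Rosa26 the reverse tetracycline transactivator that doxycycline switches on. All cells were treated with doxycycline until day 7, fixed, stained for both proteins, sorted and decrosslinked before RNA was taken, so the populations were parted by the E-cadherin gate and both carry the cassette. Whether a replicate is a culture or an animal of its own is not in the labels, and p-values therefore cover only the spread between the samples sequenced, which may be technical.

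Kinesins bind microtubules through a conserved motor domain that splits ATP. In dividing cells a set of them builds the spindle, moves chromosomes and drives cytokinesis, and their mRNAs are made mostly in the G2 and M phases. In neurons, which no longer divide, others carry vesicles, mitochondria and RNA along axons and dendrites, and several of these also serve every other cell type and the assembly of cilia.

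Total expected counts ran from 12345327 to 20934553 in Nanog+E-cadherin+ libraries and from 8851110 to 39630916 in Nanog+E-cadherin- libraries. Cdh1, which encodes E-cadherin, followed the gate at 53.5 ± 20.2 against 7.57 ± 2.25 TPM (SD, n = 3 each; TPM is a share of all transcripts, corrected for transcript length). Nanog stood at 158 ± 48.7 against 149 ± 19.8 TPM, and the neural stem cell gene Nes was present in every library, from 18.1 to 109 TPM against 23.7 to 114 TPM. Olfactory and vomeronasal receptor genes, taken as a sign of background sequence, summed to 31.9, 155 and 112 CPM in Nanog+E-cadherin+ replicates 1 to 3, against 36.1, 1886 and 1215 CPM (counts scaled to the library total) in Nanog+E-cadherin- replicates 1 to 3. The last 2 libraries thus stand apart, and values without them are given where they matter.

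The fitted values of mitotic and transport kinesins lay on opposite sides of 0, although few members passed a test. All 12 mitotic kinesins tested had a fitted level above that of Nanog+E-cadherin- cells, with a median log2 fold change of 0.82 (here and throughout Nanog+E-cadherin+ is the numerator of a fold change). All 12 transport kinesins were fitted lower, with a median of -0.35, while of all 13460 genes tested 48.5% were fitted higher and 51.5% lower, with a median of -0.01. These counts depend on list membership, and the lists were chosen with earlier results of these data known. Of 14 other kinesins tested, 4 were fitted higher and 10 lower. They include the transport motor Kif1c (0.17), the endosome motor Kif13a (0.52) and Kif2a (-0.51), which was placed apart from Kif2b and Kif2c of the mitotic list. With Nanog+E-cadherin- replicate 1 as the single library left of its population, the mitotic median was 0.89, and the transport median was -0.17 with Kif1a, Kif1b and Kif3b above 0. The summed level of mitotic kinesins was 555, 834 and 664 TPM in Nanog+E-cadherin+ replicates 1 to 3, against 324, 459 and 447 TPM in Nanog+E-cadherin- replicates 1 to 3. The sum of transport kinesins was 77.5, 182 and 165 TPM, against 109, 201 and 296 TPM. Mitotic motors therefore outweighed transport motors 7.16, 4.59 and 4.02 times in Nanog+E-cadherin+ libraries and 2.97, 2.28 and 1.51 times in Nanog+E-cadherin- libraries, without overlap between the populations. In bulk RNA, fewer cells of a type and less RNA per cell cannot be told apart.

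In edgeR's quasi-likelihood test across all genes with population as the only term, 0 of the 38 kinesins tested passed an adjusted p of 0.05, and 0% of all genes did. At an unadjusted p under 0.05 there were 12 kinesins, 9 higher (all mitotic) and 3 lower, where 2.67% of all genes were reached, 1.08% higher and 1.58% lower. DESeq2's Wald test called 3 kinesins with population only, where it called 0.373% of the 5626 genes to which it gave an adjusted p, and limma-voom called 0 kinesins and 0% of all genes. DESeq2 gave no adjusted p in that fit to Kif14, Kif5a, Kif5c and several other kinesins, so these could not be called. Samples with the same replicate number deviated together, and with that number as a block edgeR called 3 kinesins higher and 0 lower, against 0.305% of all genes called, 0.215% higher and 0.0892% lower. At an unadjusted p under 0.05 that fit had 10 kinesins higher and 6 lower, against 5.51% and 5.19% of all genes. The 3 called were Kif18b, Kif20a and Kif2c.

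**Figure D1:**
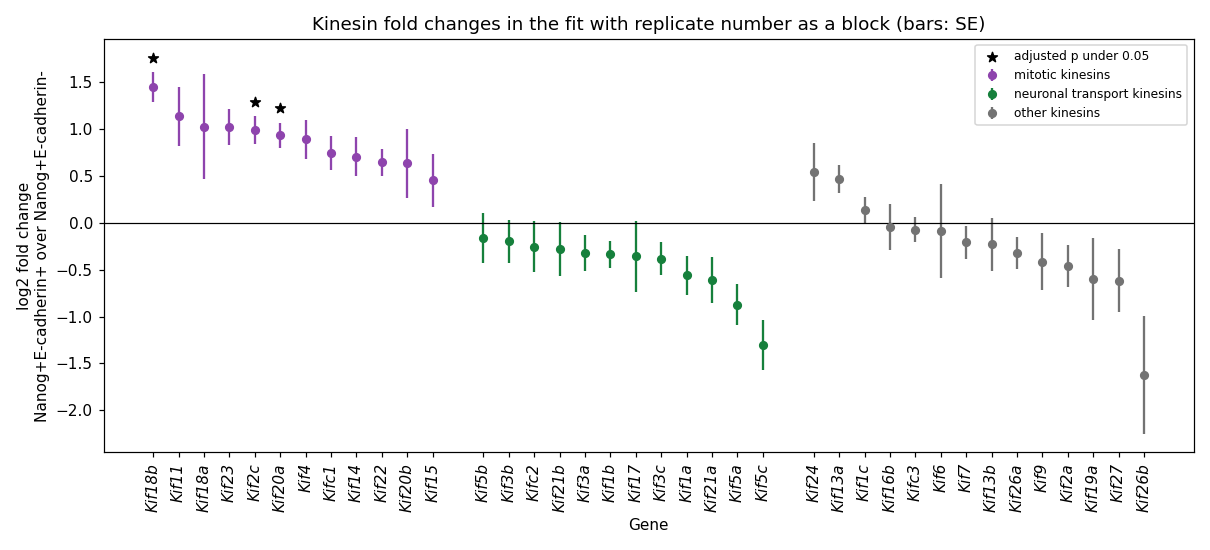
Log2 fold change of each tested kinesin (Nanog+E-cadherin+ over Nanog+E-cadherin-) in the fit with replicate number as a block, with bars of 1 SE, grouped into mitotic, transport and other kinesins. Stars mark Kif18b, Kif2c and Kif20a, and all 12 mitotic kinesins lie above 0 while all 12 transport kinesins lie below it.

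Kif18b, a motor that shortens the astral microtubules of the mitotic spindle, differed most among the mitotic kinesins. It stood at 52.2, 80.7 and 66.8 TPM in Nanog+E-cadherin+ replicates 1 to 3, against 23.7, 26.4 and 27.0 TPM in Nanog+E-cadherin- replicates 1 to 3. Every Nanog+E-cadherin+ library was well above every Nanog+E-cadherin- library, and the Nanog+E-cadherin- libraries lay close together. The fold change was 2.74 with the replicate block (1.45 ± 0.16 in log2, SE; edgeR's quasi-likelihood test, Benjamini-Hochberg adjusted p = 0.0168) and 1.44 ± 0.22 in log2 with population only.

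Kif20a, which takes the chromosomal passenger complex to the central spindle for cytokinesis, stood at 74.8, 121 and 91.4 TPM in Nanog+E-cadherin+ replicates 1 to 3, against 41.0, 66.8 and 53.5 TPM in Nanog+E-cadherin- replicates 1 to 3. Kif2c, a centromere kinesin that removes tubulin from microtubule ends, stood at 70.2, 112 and 81.3 TPM, against 37.9, 58.7 and 45.2 TPM. Neither gene's populations overlapped, and in all 3 replicate numbers the ratio was nearly the same, with log2 ratios between 0.77 and 0.87 for Kif20a and between 0.85 and 0.93 for Kif2c. With the replicate block both rose in edgeR's test, Kif20a by 0.93 ± 0.14 (SE, adjusted p = 0.0391) and Kif2c by 0.99 ± 0.14 (SE, adjusted p = 0.0371) on the log2 scale.

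Another 3 mitotic kinesins did not overlap between populations and did not pass in edgeR's test, with or without the block. With the block all 3 passed in DESeq2's test, which called 2.26% of all genes (adjusted p = 0.000368 for Kif23, 0.0120 for Kif4 and 0.00631 for Kif22), and in limma-voom, which called 1.96%. Kif23, the motor of the centralspindlin complex at the midzone, stood at 32.3, 58.2 and 40.8 TPM in Nanog+E-cadherin+ replicates 1 to 3, against 17.2, 22.6 and 29.1 TPM in Nanog+E-cadherin- replicates 1 to 3. Its blocked log2 fold change was 1.02 ± 0.19 (SE, adjusted p = 0.0978), and it passed in DESeq2's test with population only (adjusted p = 0.0196). Kif4, a chromosome-bound motor that also organises the midzone, stood at 19.3, 30.8 and 23.7 TPM, against 12.3, 11.9 and 18.3 TPM. Kif22, a motor that pushes chromosome arms away from the poles, stood at 125, 183 and 144 TPM, against 82.2, 108 and 120 TPM. The gap between the populations was narrow for both, since Nanog+E-cadherin- replicate 3 came close to Nanog+E-cadherin+ replicate 1. Kif4 had a log2 fold change of 0.89 ± 0.21 (SE) with the block, and Kif22 one of 0.65 ± 0.14 (SE).

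Kifc1, a motor that walks to microtubule minus ends and gathers spindle poles, was at a level like that of Kif22. It stood at 127, 170 and 154 TPM in Nanog+E-cadherin+ replicates 1 to 3, against 83.6, 134 and 78.2 TPM in Nanog+E-cadherin- replicates 1 to 3. The populations overlapped in TPM because Nanog+E-cadherin- replicate 2 was above Nanog+E-cadherin+ replicate 1, although Kifc1 was higher within each replicate number. In CPM scaled by TMM the populations did not overlap. The blocked log2 fold change of Kifc1 was 0.74 ± 0.18 (SE, adjusted p = 0.19 in edgeR's test). With the block it passed in DESeq2's test (adjusted p = 0.00724) and in limma-voom (adjusted p = 0.0277). Kifc5b, a close copy of Kifc1 with which reads may be shared, stood at 39.3, 67.5 and 52.1 TPM, against 26.8, 19.7 and 23.0 TPM, so the split between them is uncertain.

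Over the mitotic list, 6 of 12 tested members were above in every library without overlap, against 3.19% of all genes tested, and 9 were when levels were taken as CPM scaled by TMM (3.74% of all genes). Without the 2 libraries of high background sequence 1 Nanog+E-cadherin- library is left, and all 12 lay above it, as did 27.8% of all genes. Within replicate numbers, 8 of 12 were higher in all 3, against 12.1% of all genes, and in CPM 9 were, against 18.9%. Kif14, a cytokinesis motor that binds citron kinase, was the lowest of the 8, at 6.31, 9.78 and 8.18 TPM in Nanog+E-cadherin+ replicates 1 to 3, against 3.37, 6.15 and 6.97 TPM in Nanog+E-cadherin- replicates 1 to 3. Kif2b, a further mitotic kinesin, was below the filter on low counts, with 1 count in Nanog+E-cadherin+ replicate 2 and 0 in the other 5 libraries.

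**Figure D2:**
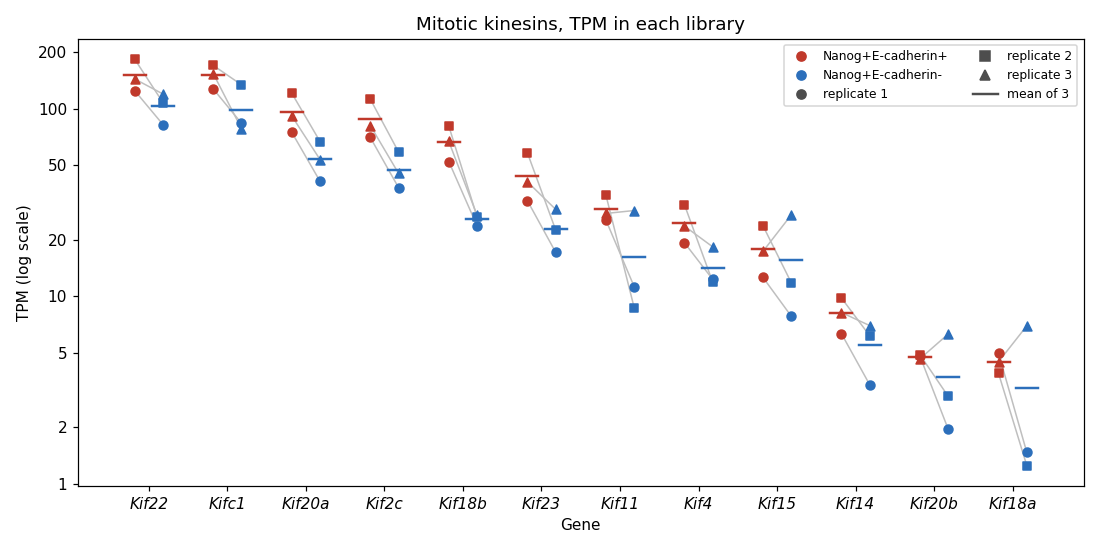
TPM (log axis) of the 12 tested mitotic kinesins in each library, Nanog+E-cadherin+ in red at the left and Nanog+E-cadherin- in blue at the right of each gene; symbols mark replicate numbers, thin lines join libraries of the same number and bars are means of 3. Kif18b is separated most, and Kif11, Kif15, Kif20b and Kif18a are high in Nanog+E-cadherin- replicate 3.

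In TPM the other 4 mitotic kinesins, named after their values were seen, were higher in replicate numbers 1 and 2 and lower in number 3. Kif11, the motor that pushes the spindle poles apart, stood at 25.5, 34.6 and 27.6 TPM in Nanog+E-cadherin+ replicates 1 to 3, against 11.3, 8.70 and 28.6 TPM in Nanog+E-cadherin- replicates 1 to 3. Kif15, which helps Kif11 to keep the spindle bipolar, stood at 12.6, 23.8 and 17.3 TPM, against 7.83, 11.8 and 27.1 TPM. For Kif15 Nanog+E-cadherin- replicate 3 was the highest library, and for Kif11 it was the second highest in TPM. In CPM scaled by TMM Kif11 was higher in all 3 numbers and did not overlap, at 68.8 against 61.5 CPM in number 3. With the block Kif11 passed in DESeq2's test (adjusted p = 0.00790) and in limma-voom (adjusted p = 0.0271), and not in edgeR's test (adjusted p = 0.252). Kif18a, which damps chromosome movements at metaphase, stood at 4.97, 3.88 and 4.47 TPM, against 1.47, 1.25 and 6.95 TPM. Kif20b, a motor of late cytokinesis, stood at 4.78, 4.87 and 4.64 TPM, against 1.95, 2.92 and 6.29 TPM. For Kif18a and Kif20b Nanog+E-cadherin- replicate 3 exceeded all Nanog+E-cadherin+ libraries, and the other Nanog+E-cadherin- libraries were below them.

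These 4 have the lowest GC content among the mitotic kinesins with a value, at 38.3% for Kif18a, 39.4% for Kif20b, 42.2% for Kif11 and 42.7% for Kif15, whereas the next, Kif23, has 46.3%. Over all genes tested, the median log2 TPM ratio within replicate number 3 was -0.60 for genes under 42% GC, -0.47 for those between 42% and 46%, and 0.13 for those at 54% or more. Within numbers 1 and 2 the medians were 0.09 and 0.08 under 42% GC, and -0.18 and -0.10 at 54% or more. The part of GC content in these ratios was not tested.

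**Figure D3:**
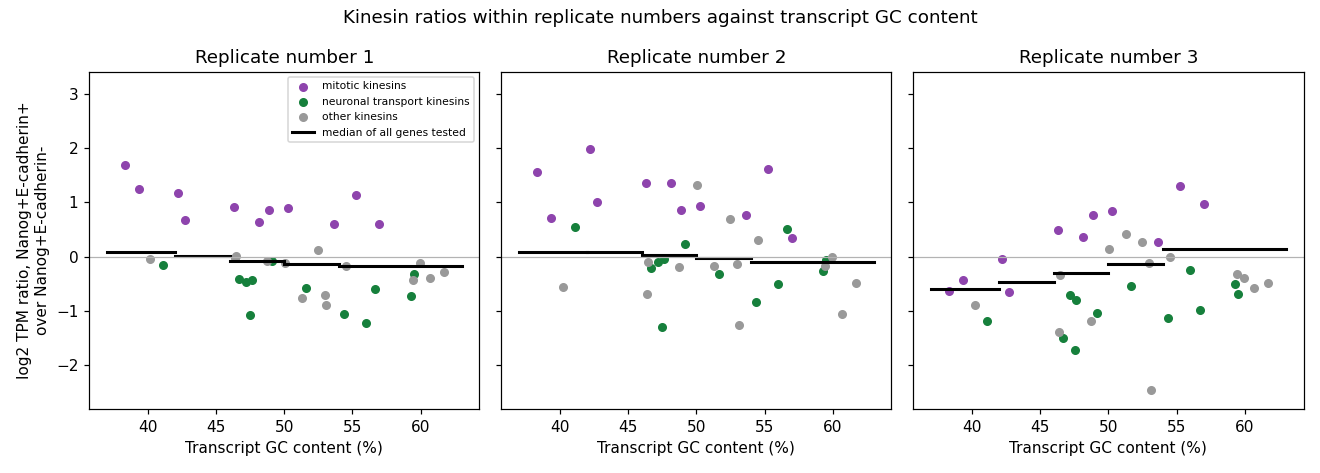
Log2 ratio of TPM + 0.1, Nanog+E-cadherin+ over Nanog+E-cadherin-, within each replicate number (panels) against transcript GC content in percent; points are kinesins with a GC value and black bars are medians of all tested genes per GC class, with the outermost classes drawn only over the plotted range. In number 3 the 4 mitotic kinesins of lowest GC lie below 0 and the black bars climb with GC content.

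Promoter sequences are shown for 8 of the mitotic kinesins described above, chosen with their matches known and including some with 1 or neither of the elements, because genes of G2 and M phase are known for a short promoter element, the cell-cycle genes homology region or CHR, and for CCAAT boxes, which are bound by NF-Y. The CHR was searched as TTTGAA or TTCGAA and the CCAAT box as CCAAT, on both strands, in the window from 250 bases before to 50 bases after each start in RefSeq's GRCm38.p6 annotation. The CHR letters were in the windows of 10 of the 12 mitotic kinesins with an entry, against 1 of 8 transport kinesins and 21.7% of all 27025 genes. The CCAAT letters were in 8 of 12, against 3 of 8 and 41.1%, and no match to either overlapped a match to the other. Both were found in 7 of 12 mitotic kinesins, against 0 of 8 transport kinesins and 9.65% of all genes. A match is a description of letters and not a binding site. The sequences below run 5′ to 3′ in the direction of the gene, from 120 bases before the start to 30 bases after it, with capitals at matches to CHR or CCAAT letters (TTCAAA and ATTGG are the same letters read on the other strand). Kif5c, a transport kinesin with neither, is given last for comparison.
Kif18b, chr11:102925095-102925244, minus strand: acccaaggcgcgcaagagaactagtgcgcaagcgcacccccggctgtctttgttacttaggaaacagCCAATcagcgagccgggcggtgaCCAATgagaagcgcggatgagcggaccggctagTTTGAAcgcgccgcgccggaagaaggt
Kif2c, chr4:117178743-117178892, minus strand: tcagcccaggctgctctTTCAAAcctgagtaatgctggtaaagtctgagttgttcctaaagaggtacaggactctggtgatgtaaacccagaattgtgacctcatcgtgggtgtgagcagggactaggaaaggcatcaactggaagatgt
Kif23, chr9:61946770-61946919, minus strand: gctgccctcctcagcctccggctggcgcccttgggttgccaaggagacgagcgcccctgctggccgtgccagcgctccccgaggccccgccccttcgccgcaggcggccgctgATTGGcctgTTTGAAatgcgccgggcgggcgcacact
Kif4, chrX:100625945-100626094, plus strand: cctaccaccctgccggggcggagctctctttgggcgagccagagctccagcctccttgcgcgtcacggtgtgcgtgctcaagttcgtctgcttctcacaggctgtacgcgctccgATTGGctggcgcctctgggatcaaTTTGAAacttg
Kif22, chr7:127042391-127042540, minus strand: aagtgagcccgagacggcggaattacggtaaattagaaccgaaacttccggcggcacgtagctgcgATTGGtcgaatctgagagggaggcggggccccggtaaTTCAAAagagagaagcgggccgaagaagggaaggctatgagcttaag
Kif11, chr19:37376262-37376411, plus strand: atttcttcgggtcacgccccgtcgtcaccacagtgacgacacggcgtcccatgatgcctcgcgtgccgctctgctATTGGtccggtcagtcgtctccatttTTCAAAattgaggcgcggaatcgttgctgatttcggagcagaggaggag
Kif15, chr9:122950961-122951110, plus strand: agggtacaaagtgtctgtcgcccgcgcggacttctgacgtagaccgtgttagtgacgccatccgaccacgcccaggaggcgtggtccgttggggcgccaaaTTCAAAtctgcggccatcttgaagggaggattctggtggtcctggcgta
Kif18a, chr2:109280618-109280767, plus strand: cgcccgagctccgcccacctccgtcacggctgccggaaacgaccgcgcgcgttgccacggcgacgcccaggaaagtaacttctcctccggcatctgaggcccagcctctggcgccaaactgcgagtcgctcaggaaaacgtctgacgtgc
Kif5c, chr2:49619166-49619315, plus strand: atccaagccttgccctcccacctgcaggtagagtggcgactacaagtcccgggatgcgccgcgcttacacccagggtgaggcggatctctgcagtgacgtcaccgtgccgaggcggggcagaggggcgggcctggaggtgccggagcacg

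Counting the first transcribed base as 1, the CHR letters began at base 4 in Kif18b, base 3 in Kif23 and base 20 in Kif4, and at base -17 in Kif22 and -19 in Kif11. In each of these 5 a CCAAT match lay before them, the nearest at -30 in Kif18b, -7 in Kif23, -5 in Kif4, -54 in Kif22 and -45 in Kif11. Kif22 also had CHR letters at -215 and CCAAT letters at -233, both before the stretch shown. Kif2c, which passed the test with the block, had the CHR letters farther out, at base -103, and no CCAAT letters. Kif15 had them at base -19 and again before the stretch shown, at -234, likewise with no CCAAT letters. Kif18a had neither in its window, and Kif2b, which was not expressed, had CCAAT letters only. Among transport kinesins the single CHR match lay at 1 of 2 annotated starts of Kif1a. Kif20a, Kif5a, Kif5b, Kif21b and Kifc2 had no entry.

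**Figure D4:**
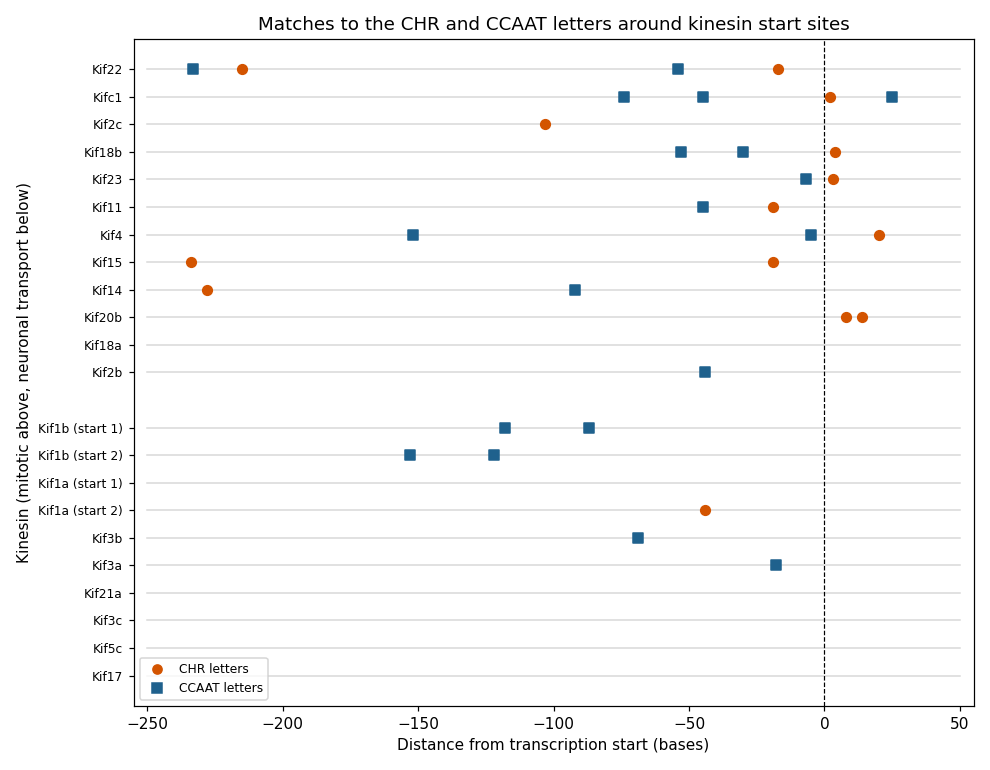
Position of the first base of each match to CHR letters (orange circles) and CCAAT letters (blue squares), on either strand, from 250 bases before to 50 after the transcription start, with mitotic kinesins above and transport kinesins below. CHR matches lie near the start in most mitotic kinesins, and transport kinesins hold 1 of them, at a start of Kif1a.

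Among the transport motors the neuron-enriched heavy chains of conventional kinesin differed most. Kif5a, which carries neurofilaments and other axonal cargo, stood at 3.72, 6.53 and 4.46 TPM in Nanog+E-cadherin+ replicates 1 to 3, against 7.81, 11.8 and 9.87 TPM in Nanog+E-cadherin- replicates 1 to 3. All Nanog+E-cadherin+ libraries were below all Nanog+E-cadherin- libraries, and the log2 fold change was -0.87 ± 0.22 with the block (SE, adjusted p = 0.208 in edgeR's test). Kif5c, named after its values were seen, stood at 1.51, 3.60 and 2.26 TPM, against 3.30, 9.02 and 7.65 TPM. Its populations overlapped in TPM by a small margin, since replicate 2 of Nanog+E-cadherin+ was above replicate 1 of Nanog+E-cadherin-, and did not overlap in CPM. The log2 fold change of Kif5c was -1.30 ± 0.27 with the block (SE, adjusted p = 0.132 in edgeR's test), a 2.46-fold lower level, and it passed with the block in DESeq2's test (adjusted p = 0.0154) and in limma-voom (adjusted p = 0.0305).

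Kif5b, the conventional heavy chain found in all tissues, did not share this pattern. It stood at 15.8, 24.7 and 23.5 TPM in Nanog+E-cadherin+ replicates 1 to 3, against 17.5, 16.9 and 53.7 TPM in Nanog+E-cadherin- replicates 1 to 3. Nanog+E-cadherin- replicate 3 alone was high, and without it the fitted log2 fold change was 0.22, where it was -0.31 with all libraries. Whether Kif5b differed from Kif5a and Kif5c in its response was not tested. Kif5b has a GC content of 41.1%, Kif5c one of 47.5% and Kif5a one of 54.3%.

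Kif1a and Kif1b, which carry synaptic vesicle precursors and, for Kif1b, mitochondria, varied more between replicate numbers than between populations. Kif1a stood at 4.07, 25.6 and 33.8 TPM in Nanog+E-cadherin+ replicates 1 to 3, against 9.61, 36.4 and 40.3 TPM in Nanog+E-cadherin- replicates 1 to 3. Kif1b stood at 10.9, 35.4 and 30.9 TPM, against 15.1, 38.0 and 50.6 TPM. Both were lowest in the libraries of number 1 and were lower in Nanog+E-cadherin+ cells within every number, with blocked log2 fold changes of -0.56 ± 0.21 for Kif1a and -0.33 ± 0.15 for Kif1b (SE). Without Nanog+E-cadherin+ replicate 1 the population-only value of Kif1a was 0.08, where it was -0.37 with all libraries.

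The remaining 7 transport kinesins stood between 2.23 and 19.3 TPM in Nanog+E-cadherin+ libraries and between 3.23 and 39.2 TPM in Nanog+E-cadherin- libraries. They are the subunits of heterotrimeric kinesin-2, Kif3a, Kif3b and Kif3c, which also build cilia, the axonal and dendritic motors Kif21a and Kif21b, and the dendritic motors Kif17 and Kifc2. Blocked log2 fold changes ran from -0.61 ± 0.25 for Kif21a to -0.20 ± 0.23 for Kif3b (SE). Over the transport list, 1 of 12 (Kif5a) was below in every library in TPM, against 1.51% of all genes tested. In CPM scaled by TMM 5 were, namely Kif5a, Kif5c, Kif3c, Kif17 and Kifc2, against 3.25%. Below Nanog+E-cadherin- replicate 1 alone, in TPM, there were 2, against 8.32% of all genes. In TPM 9 of 12 were lower in all 3 replicate numbers, against 23.7% of all genes, with Kif3b, Kif5b and Kif21b as the exceptions. In CPM it was again 9, against 17.3% of all genes. The list's median within replicate numbers 1 to 3 was -0.52, -0.16 and -0.89 in log2 TPM ratio, against -0.09, -0.01 and -0.17 over all genes.

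**Figure D5:**
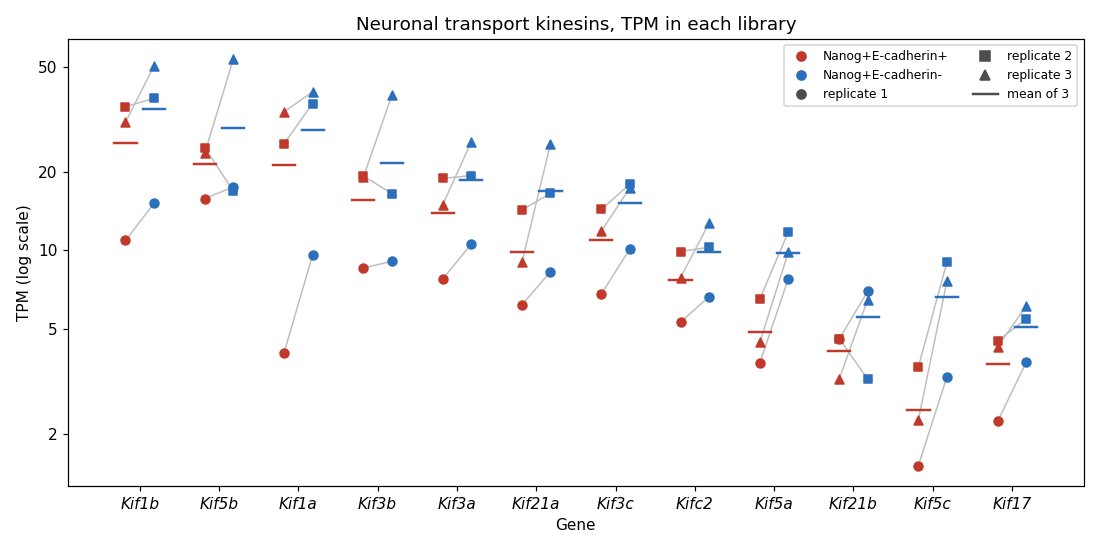
TPM (log axis) of the 12 transport kinesins in each library, Nanog+E-cadherin+ in red at the left and Nanog+E-cadherin- in blue at the right of each gene; symbols mark replicate numbers, thin lines join libraries of the same number and bars are means of 3. Kif5a and Kif5c are lower in Nanog+E-cadherin+ cells within every number, while Kif1a and Kif1b differ more between number 1 and the others.

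The fitted direction of the transport kinesins rested on more libraries for some members than for others. Without Nanog+E-cadherin- replicate 3, Kif5b and Kif3b were fitted above 0, and without Nanog+E-cadherin- replicate 1, Kif21b was (0.17).

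Of the other kinesins 14 were tested, with 4 fitted higher and 10 lower (median log2 fold change -0.17), and none passed in either fit. Kifc3, a minus-end motor that acts at epithelial adherens junctions, had the highest mean TPM of all kinesins, at 40.3, 113 and 244 TPM in Nanog+E-cadherin+ replicates 1 to 3, against 43.8, 113 and 321 TPM in Nanog+E-cadherin- replicates 1 to 3. Kif1c, a transport motor found in many tissues, stood at 44.7, 120 and 140 TPM, against 50.6, 96.9 and 142 TPM. Both were low in the libraries of number 1 in each population, and the blocked log2 fold change of Kifc3 was -0.07 ± 0.13 (SE). Kif13a, which moves endosomes, stood at 14.4, 56.5 and 53.1 TPM, against 13.1, 35.1 and 43.8 TPM, higher in each replicate number, with a blocked log2 fold change of 0.47 ± 0.15 (SE, adjusted p = 0.322 in edgeR's test). Kif26b, chosen after its values were seen, had the lowest fold change of all kinesins (-1.62 ± 0.63 in log2 with the block, SE; edgeR's adjusted p = 0.408), at 0.25, 0.58 and 0.52 TPM, against 0.55, 1.52 and 3.29 TPM, where 0.25 TPM rests on 26 counts. Kif12 was at 0 counts in every library.

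Of the 12 listed partners of mitotic motors, 4 rose in edgeR's test with the block and 0 fell, against 0.215% and 0.0892% of all genes. None passed with population only. All 12 had fitted values above 0 (median 0.71 in log2), down to 0.15 ± 0.14 for Mapre1 and 0.14 ± 0.13 for Kpnb1 with the block (SE). In TPM 7 were higher in all 3 replicate numbers, against 12.1% of all genes. Prc1, which bundles midzone microtubules and recruits Kif4, rose to 87.8 ± 23.2 TPM, against 36.1 ± 5.62 TPM (SD, n = 3 each; adjusted p = 0.0210). Plk1, the kinase that docks on Kif20a, stood at 244 ± 4.78 against 104 ± 13.1 TPM (adjusted p = 0.0168). Aurkb and Incenp, of the chromosomal passenger complex that Kif20a carries, had blocked log2 fold changes of 1.22 ± 0.16 and 1.09 ± 0.16 (SE, adjusted p = 0.0300 and 0.0371). Cenpe, itself a kinesin outside the naming rule that holds chromosomes at kinetochores, stood at 5.76, 6.08 and 4.24 TPM in Nanog+E-cadherin+ replicates 1 to 3, against 2.63, 4.07 and 7.53 TPM in Nanog+E-cadherin- replicates 1 to 3, so that Nanog+E-cadherin- replicate 3 was again the highest library.

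Of the partners of transport motors, 17 were tested, 12 were fitted lower and none passed in either fit (median log2 fold change -0.15). Those of smallest p with population only were the mitochondrial adaptors Trak2 and Trak1, the vesicle adaptor Mapk8ip3 and Fez2, a relative of the Kif5 adaptor Fez1, with blocked log2 fold changes of -0.67 ± 0.23, -0.43 ± 0.14, -0.53 ± 0.14 and 0.51 ± 0.24 (SE). The light chain Klc1, which links Kif5 motors to cargo, stood at 111 ± 36.7 against 144 ± 41.6 TPM (SD, n = 3 each). Kifap3, which joins kinesin-2 to its cargo, stood at 19.4 ± 6.22 against 18.7 ± 4.59 TPM.

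Markers of other cell states and types were read beside these groups, and their part in the kinesin values was not tested. The cycling genes Mki67, Top2a, Ccnb1 and Cdk1 summed to between 475 and 648 TPM in Nanog+E-cadherin+ libraries, against 225 to 297 TPM in Nanog+E-cadherin- libraries. All 4 were fitted higher, and Top2a, Ccnb1 and Cdk1 rose in edgeR's test with the block, where 0.215% of all genes did. Mki67 did not pass (adjusted p = 0.484 in edgeR's test with the block) and was lower in replicate number 3, at 17.0 against 23.7 TPM. The 7 neuron genes measured summed to 602, 198 and 140 TPM in Nanog+E-cadherin+ replicates 1 to 3, against 839, 431 and 232 TPM in Nanog+E-cadherin- replicates 1 to 3. The populations overlapped, and the sum was lower in Nanog+E-cadherin+ cells within each replicate number. Among the 7 genes 5 were fitted lower and 2 higher. Of these Tubb3 alone fell with the block (adjusted p = 0.0370 in edgeR's test), where 0.0892% of all genes did. Dcx, Snap25 and Syp, 3 of the 7, were below in every library in TPM without overlap, against 1.51% of all genes tested. Their blocked log2 fold changes were -1.55 ± 0.43, -2.18 ± 0.90 and -1.19 ± 0.32 (SE). Nefl stood at 5.19 ± 4.21 against 3.20 ± 4.54 TPM, and Stmn2 stood at 169 ± 132 against 167 ± 107 TPM (SD, n = 3 each). The mature neuron marker Rbfox3 was at 0.19 to 0.51 TPM, against 0 to 1.54 TPM. Microglia markers were near 0, with sums of 0.04 to 0.69 TPM against 0.03 to 2.20 TPM.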

How the data were processed

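RNA-seq libraries of both sorted populations were made with a TruSeq RNA kit, per the labels' protocols. Per the submitters' processing notes, Bowtie and RSEM 1.2.4 were used with build mm9; strand and settings are not stated in the labels, so antisense overlap cannot be told apart, and RSEM divides reads between similar genes. The expected counts deposited by the authors were rounded to whole numbers for testing. The authors' TPM values gave levels and ratios within replicate numbers, as log2(TPM + 0.1). Kif18a rested on 23 counts in Nanog+E-cadherin- replicate 2, so the counts of low members are the least precise.

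All genes were tested with edgeR 4.0.16 under R 4.3.3 (TMM, filterByExpr with a minimum count of 10 and total of 15, quasi-likelihood, Benjamini-Hochberg adjustment, threshold 0.05) with population as the only term. Alternatives used limma 3.58.1 and DESeq2 1.42.0. Only the edgeR fits, with and without the block, were run on simulated data, and the DESeq2 and limma fits were not. Deviations from the population means correlated at 0.79, 0.45 and 0.54 between libraries of the same number and from -0.65 to 0.16 otherwise, so blocked values are given. Deviations from a mean of 3 sum to 0 in each population, so positive values at the same number partly force the other values down. This pairing comes from the values, not the labels. GC content is the mean over each gene's RefSeq accessions found in GENCODE M21 transcripts (99.2% of genes tested had a value, Kif14 did not). The marker Map2 was not analysed here. Kinesins were named with full values where they passed in either fit, did not overlap in TPM with at least 1 TPM, or had one of the 3 highest mean TPM of their list; others were chosen after their values were seen. The members and lists were chosen with earlier results of these data known.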

Additional observations from a re-analysis of the deposited data

How the results depend on the processing

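The mitotic median log2 fold change stayed between 0.70 and 1.01 and the transport median between -0.50 and -0.17 in the alternatives run. Counts of calls moved, and the cause was not tested. With the replicate block edgeR called 41 genes and 3 kinesins, DESeq2 304 and 9, and limma-voom 264 and 9, where population only gave 0 in edgeR and 21 genes and 3 kinesins in DESeq2; with no filter edgeR called 1 gene. Leaving out both libraries of number 1, 2 or 3 under the block gave 182, 140 and 449 genes and 3, 4 and 13 kinesins. Without number 3 the transport kinesins Kif1a, Kif5a and Kif5c were called lower, with log2 fold changes of -0.81, -0.94 and -1.17. Their adjusted p was 0.0144, 0.0217 and 0.0237 in edgeR's test. All other kinesins called in these fits were mitotic and higher. Leaving out any single library with population only gave 0 genes and 0 kinesins. Added after the data were seen, leaving out Nanog+E-cadherin- replicates 2 and 3 left 1 library of that population, with 12 mitotic kinesins above it (27.8% of all genes) and 2 transport kinesins below it (8.32%), and CPM scaled by TMM put 5 transport kinesins below.

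Uncalled kinesins changed sign. Without those 2 libraries log2 fold changes were 0.32 for Kif1b, 0.65 for Kif1a, 0.37 for Kif3b, 1.16 for Kifc3, 0.051 for Kif2a, 1.86 for Kif9, 0.58 for Kif16b, 1.10 for Kif27 and 0.47 for Kif13b. Kif6 was -0.084 with the block, -0.070 in DESeq2 and -0.083 in limma-voom with the block, and -0.086 and -0.17 in limma on log2(TPM + 1) and log2(TPM + 0.1). In limma-voom with population only Kif9 was 0.28 and Kif16b 0.11. Under the block Kif6 was -0.033 without number 2 and -0.44 without number 3, where Kif5b was 0.25, Kif3b 0.12 and Kif16b 0.0084. Leaving out single libraries gave -0.86 to 0.079 for Kif1a, -0.81 to 0.71 for Kifc3, -0.30 to 0.13 for Kif16b, -0.37 to 0.21 for Kif13b, -0.28 to 0.36 for Kif6, -0.060 to 0.42 for Kif1c, -0.72 to 0.17 for Kif21b, -0.60 to 0.22 for Kif5b, -0.56 to 0.25 for Kif3b and -1.34 to 0.53 for Kif9. With 3 libraries a population and pairs found from the values, kinesins of few counts are uncertain. So are some of many counts, such as Kifc3, which had the highest mean TPM and ran from -0.81 to 0.71.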

Other observations

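Kinesins differed in how far their level varied with replicate number. The range of the replicate-number means in log2 CPM exceeded the mean difference between populations for 12 of 14 other kinesins and 6 of 12 transport kinesins, against 2 of 12 mitotic kinesins; a range over 3 means is set here beside a difference of 2, so the count is a description. Kif9, a motor of motile cilia, differed most between numbers, by 8.73-fold, and stood at 1.35, 7.85 and 13.2 TPM in Nanog+E-cadherin+ replicates 1 to 3, against 1.43, 8.99 and 30.3 TPM in Nanog+E-cadherin- replicates 1 to 3. Kif27, a ciliary relative of Kif7, ran from 1.34 to 5.65 TPM, against 1.36 to 14.9 TPM, lowest in number 1 and highest in number 3 in both populations. Astrocyte markers Gfap, Aqp4 and Aldh1l1 were also low in both libraries of number 1, with sums of 27.0, 239 and 585 TPM in Nanog+E-cadherin+ replicates 1 to 3, against 13.99, 224 and 448 TPM in Nanog+E-cadherin- replicates 1 to 3. Their part in the values of Kif9 and Kif27 was not tested.

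Across the 37 kinesins tested that have a GC value, the Spearman correlation of GC content with the log2 TPM ratio was -0.44, -0.30 and 0.22 within replicate numbers 1 to 3, and over 13348 genes it was -0.24, -0.14 and 0.33. For transcript length it was -0.45, -0.29 and -0.35 across the 38 kinesins tested, and -0.24, 0.01 and -0.30 over 13460 genes. Median length was 3451 bases for tested mitotic kinesins and 6112 bases for transport kinesins. The part of length in the kinesin ratios was not tested. These are descriptions across genes of the same libraries, and genes are not independent replicates.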
